A study of Homo sapiens with 8 samples.

Results

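DEAD and DEAH box helicases are enzymes that spend ATP to open RNA duplexes or to strip proteins from RNA. They are named for the residues of a conserved motif in the ATP-binding core. The 52 members described here are the genes in the count table whose symbol is DDX or DHX followed by a number, among 59414 genes in all. DDX6, itself a building block of P-bodies, was kept out of the family and serves only as a point of comparison. DDX60L and numbered relatives under other symbols were not members. Each editing table listed 44 of the 52 members.

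Family members take part in nearly every step in the life of an RNA. DEAH proteins drive the remodelling steps of the spliceosome, many DEAD proteins help to assemble ribosomes in the nucleolus, and others act in export, translation, transcription or antiviral sensing. P-bodies are cytoplasmic granules that gather repressed mRNAs with decapping and decay factors, and the values below concern the helicases' own mRNAs, not the proteins.

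All libraries came from HEK293T, a human embryonic kidney line, and carried a pair of P-body-directed RNA editors (PB-TRIBE-STAMP). The first marks RNA by turning adenosine into inosine (A-to-I), and the second by turning cytidine into uridine (C-to-U). The groups were sorted P-bodies (50 ng RNA input) against cytosol (100 ng), and cells given an siRNA against EDC4 (siEDC4, 500 ng) against cells given a control siRNA (siNC, 500 ng), with 2 libraries each. EDC4 encodes a scaffold of the decapping machinery. Fraction and input amount went together in the sort and cannot be told apart. No library without the editors was used here, and the labels do not say whether libraries of a group came from separate cultures or how the P-bodies were sorted. P-values therefore measure the spread between these libraries, which may be technical. The marker genes of the line were all detected, at a summed 102 to 140 CPM in the sort, and those of blood cells summed to at most 0.470 CPM. Of 3 fibroblast markers 2 were detected in all libraries (summed 14.5 to 26.2 CPM), as were 2 of 3 epithelial tumour markers (15.2 to 21.7 CPM). Sort libraries held 21186963 to 23716926 counts. Reads of the siNC libraries agreed nearly within sampling noise (chi-square over its degrees of freedom 1.02), and these libraries were summed as 1 sample. For edited reads the same ratio was larger, 1.30 for A-to-I and 1.31 for C-to-U, so the editing values of these libraries did differ beyond sampling noise, and the editing tests use the same sums. The sorted libraries differed from each other much more than the cytosol libraries did (22.5 against 3.00).

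The stretches of coding sequence below, from GENCODE v29 transcripts (hg38), show the part of each mRNA that encodes the motif behind the family's names, for the 6 members with the largest rise, the 6 with the largest fall and the paralogs of DDX17 and DDX39B. Each runs 5′ to 3′ over 60 bases, in frame from its first base. The 12 capital bases are the 4 codons of the motif. They encode DEAD in DDX5, DDX17, DDX18, DDX19B, DDX41, DDX49 and DDX54, and variants of it in the others: DEVD in DDX21, DECD in DDX39A and DDX39B, DEVH in DDX60 and DHX29, and DEIH in DHX9 and DHX36.

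DDX60: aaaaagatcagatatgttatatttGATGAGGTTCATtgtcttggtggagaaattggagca

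DDX21: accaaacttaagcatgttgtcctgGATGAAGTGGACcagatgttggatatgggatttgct

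DDX18: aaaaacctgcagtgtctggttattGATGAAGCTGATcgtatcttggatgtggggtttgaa

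DHX29: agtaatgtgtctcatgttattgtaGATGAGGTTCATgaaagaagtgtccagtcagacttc

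DHX9: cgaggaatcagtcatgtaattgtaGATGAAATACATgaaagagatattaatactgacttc

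DHX36: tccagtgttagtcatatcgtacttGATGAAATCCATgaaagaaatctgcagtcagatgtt

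DDX39B: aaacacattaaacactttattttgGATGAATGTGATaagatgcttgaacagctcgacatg

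DDX17: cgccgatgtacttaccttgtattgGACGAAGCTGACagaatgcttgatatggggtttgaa

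DDX19B: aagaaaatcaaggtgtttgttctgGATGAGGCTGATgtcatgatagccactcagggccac

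DDX41: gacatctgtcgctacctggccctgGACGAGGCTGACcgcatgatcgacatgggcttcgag

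DDX54: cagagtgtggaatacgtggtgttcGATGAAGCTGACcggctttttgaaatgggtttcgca

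DDX49: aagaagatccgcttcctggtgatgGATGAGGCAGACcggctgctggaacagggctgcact

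DDX5: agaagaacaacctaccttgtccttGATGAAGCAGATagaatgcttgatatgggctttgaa

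DDX39A: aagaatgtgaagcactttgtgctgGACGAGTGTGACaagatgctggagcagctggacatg

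Paralogs encode much the same residues in this window with different codons. DDX5 and DDX17 were identical at 46 of 60 bases but at 11 of 20 last codon positions, and DDX39A and DDX39B at 45 of 60 bases and 9 of 20 last positions. DDX19A and DDX19B were identical at 60 of 60 bases. How reads with several matches were counted is not given in the sources used here, so the values of DDX19A and DDX19B are uncertain. G or C filled 15% of the last codon positions in the DHX9 and DDX60 windows and 90.0% in the DDX41 window, but the windows of DDX17 (40.0%) and DDX39B (45.0%) lay below that of DDX21 (50.0%).

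Which helicase mRNAs were enriched in sorted P-bodies was the first question of the sort. Of 48 members tested, 22 had a higher and 7 a lower level in sorted P-bodies than in cytosol (quasi-likelihood test of edgeR, adjusted p under 0.05), and 19 did not pass. Over all 18745 genes tested, 28.8% were higher and 29.0% lower. The median log2 fold change was 0.23 over the members and -0.03 over all genes. Summed over the family, abundance was 9568 and 10134 CPM (counts relative to library size after TMM) in sorted P-bodies, against 7051 and 7201 CPM in cytosol. Within label batches 1 and 2 the median over the 48 members was 0.18 and 0.22. CPM are shares of a fraction's RNA and do not give copies per P-body or per cell.

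The germline helicases DDX4, DDX25, DDX43 and DDX53 had at most 7 counts in any library and were not tested. DHX genes had 10 of 16 higher and 0 lower by edgeR (0 also by DESeq2; DHX58 alone was lower at an unadjusted p under 0.05; median 0.41), and DDX genes had 12 of 32 higher and 7 lower (median 0.09). The difference between these classes was not tested. With library-size scaling DHX58 (-1.24, adjusted p = 0.023, edgeR) and DHX34 (-0.39, adjusted p = 0.025) were lower, and DHX58 also without the low-count filter (-1.08, adjusted p = 0.048).

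**Figure D1:**
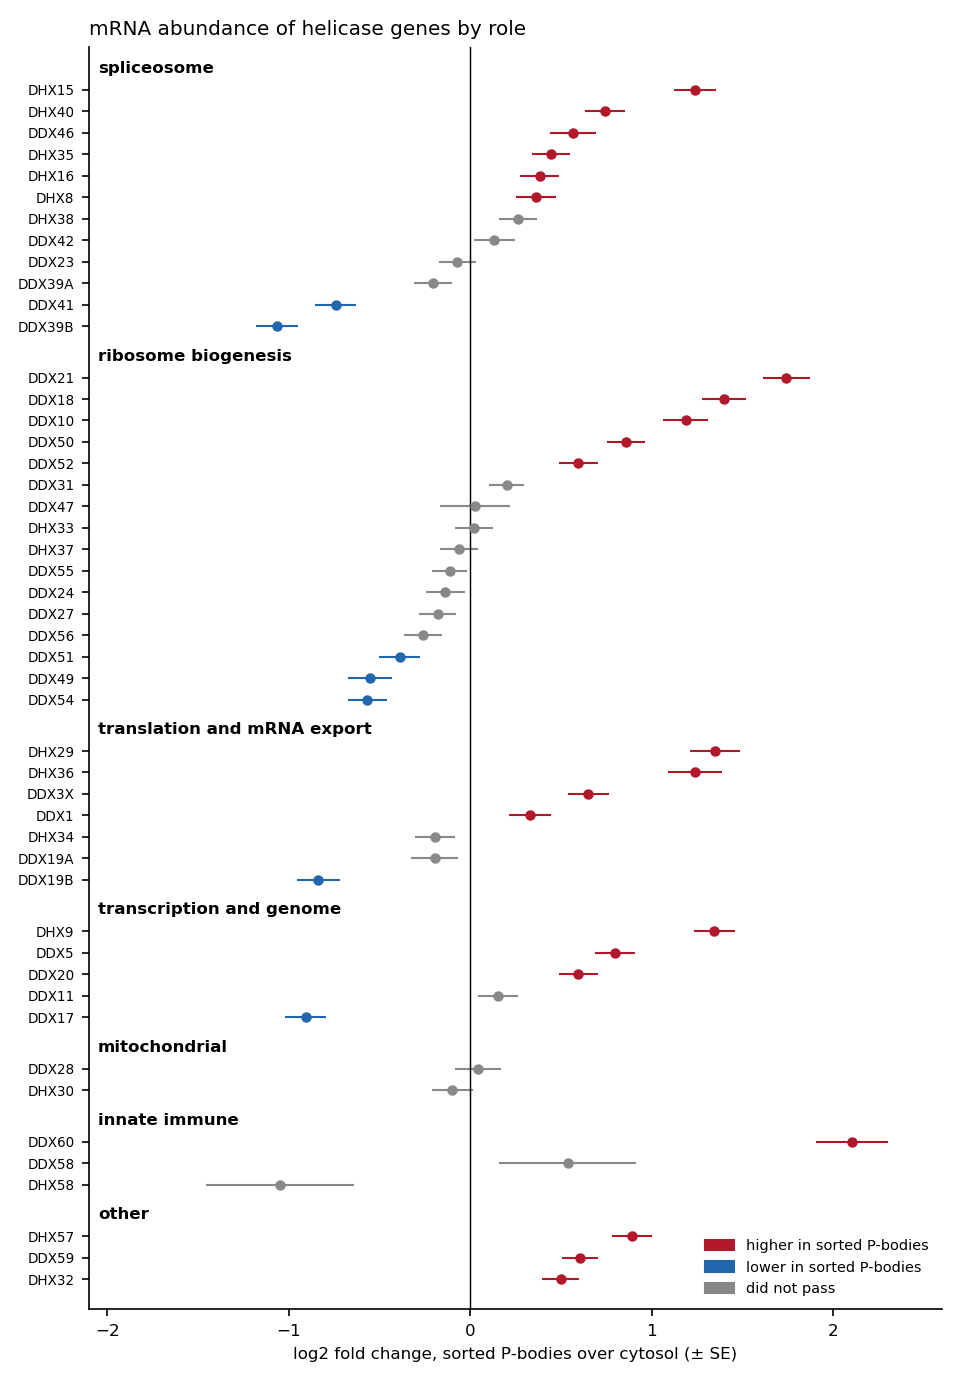
Log2 fold change of each tested member in sorted P-bodies over cytosol, with its SE, grouped by the role of the protein; positive values are higher in sorted P-bodies. Red points passed as higher (22), blue points as lower (7) and grey points did not pass (19).

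Among the helicases of ribosome assembly, 5 of 16 were higher and 3 lower, where 28.8% and 29.0% of all genes were. The same shares apply to the role groups below, and no group was tested against them. DDX21, a nucleolar helicase of rRNA transcription and processing, had 1134 and 1368 CPM in sorted P-bodies, against 369 and 379 CPM in cytosol. Its log2 fold change was 1.74 ± 0.13 (SE, adjusted p = 6.5e-06, edgeR). Per kilobase of gene model (all annotated exon bases of a gene), it ranked first in sorted P-bodies (252 CPM per kb). In cytosol it came second to DDX17 (75.2 CPM per kb). This order depends on the length used, as gene models exceed single transcripts unequally (15828 against 3237 bases for DDX3X, 4973 against 4711 for DDX21). Without division by length, DDX3X had the higher mean in sorted P-bodies (1302 against 1251 CPM). DDX50, the neighbour and paralog of DDX21, had 139 and 137 CPM in sorted P-bodies and 73.8 and 77.9 CPM in cytosol, a smaller rise of 0.86 ± 0.10 (adjusted p = 8.3e-05, edgeR). DDX21 and DDX50 lie side by side on chromosome 10 in hg38, at 68956170 to 68985068 and 68901286 to 68946847. DDX18, another nucleolar helicase, stood at 320 and 357 CPM against 121 and 136 CPM in cytosol (1.40 ± 0.12, adjusted p = 1.2e-05). DDX10 (1.19) and DDX52 (0.60) were also higher. All of these had passed on the same values, so the lack of overlap between their fractions adds no support.

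The falls in this group were smaller. DDX54 had 73.8 and 68.1 CPM in sorted P-bodies, against 100.0 and 110 CPM in cytosol (-0.57 ± 0.11, adjusted p = 0.0015, edgeR). DDX49 had 26.9 and 21.9 CPM against 34.5 and 37.2 CPM (-0.55 ± 0.12, adjusted p = 0.0034). DDX51 was at -0.39 (adjusted p = 0.015) and lost its call by DESeq2 or without either cytosol library (adjusted p from 0.076 to 0.097). The remaining 8, among them DDX24, DDX27 and DHX33, did not pass. Of these DDX47 counted only 3.66 to 4.31 CPM in each library; 36.5% of its exon bases are shared with APOLD1 on the same strand, so its count is uncertain.

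Spliceosomal helicases had 6 of 12 higher and 2 lower. DHX15, which disassembles spent spliceosomes, had 419 and 460 CPM in sorted P-bodies, against 179 and 194 CPM in cytosol (1.24 ± 0.11, adjusted p = 1.8e-05, edgeR). DHX40 (0.74) and DDX46 (0.57), a helicase of branch-site recognition, followed. DHX35, DHX16, which activates the spliceosome before the first catalytic step, and DHX8, which releases the spliced mRNA, were higher by 0.45, 0.38 and 0.36. DHX38, DDX42 and DDX23 did not pass (0.26, 0.13 and -0.07).

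DDX39B showed the largest fall of a member that passed. This helicase couples splicing to mRNA export in the TREX complex. It had 113 and 98.4 CPM in sorted P-bodies, against 229 and 213 CPM in cytosol (-1.06 ± 0.12, adjusted p = 4.6e-05, edgeR). It lies on chromosome 6 at 31530219 to 31542448, where 30.8% of its exon bases are shared on the same strand with a readthrough gene, ATP6V1G2-DDX39B. The count of DDX39B is therefore uncertain. Its paralog DDX39A had 52.1 and 45.5 CPM in sorted P-bodies and 55.7 and 56.7 CPM in cytosol, which did not pass (-0.20 ± 0.11, adjusted p = 0.13). DDX41, a spliceosome-associated helicase altered in myeloid cancers, had 43.6 and 37.2 CPM against 65.4 and 69.8 CPM in cytosol (-0.74 ± 0.11, adjusted p = 0.00034).

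The helicases of translation and export had 4 of 7 higher and 1 lower. DHX29, which helps the small ribosomal subunit through structured leaders, had 123 and 157 CPM in sorted P-bodies, against 51.3 and 58.4 CPM in cytosol (1.35 ± 0.14, adjusted p = 3.2e-05, edgeR). DHX36, which opens G-quadruplexes, had 165 and 224 CPM against 80.1 and 84.5 CPM (1.24 ± 0.15, adjusted p = 7.8e-05). The sorted libraries of DHX36 stood further apart than its cytosol libraries. DDX3X, which promotes translation of structured mRNAs, was among the most abundant members, at 1263 and 1340 CPM in sorted P-bodies and 813 and 844 CPM in cytosol (0.65 ± 0.11, adjusted p = 0.00079). DDX1, a subunit of the tRNA ligase complex, had 169 and 180 CPM against 128 and 149 CPM (0.33 ± 0.12, adjusted p = 0.035). Its call was lost without cytosol library 1 (0.20, adjusted p = 0.52) or 2 (0.43, adjusted p = 0.13), under library-size scaling (0.13, adjusted p = 0.33) and without the low-count filter (0.29, adjusted p = 0.056).

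DDX19A and DDX19B act at the nuclear pore in mRNA export and are neighbours on chromosome 16. DDX19B had 11.98 and 11.54 CPM in sorted P-bodies, against 19.96 and 22.1 CPM in cytosol (-0.84 ± 0.12, adjusted p = 0.00022, edgeR). DDX19A had 29.4 and 22.8 CPM in sorted P-bodies and 29.5 and 30.4 CPM in cytosol, which did not pass (-0.20 ± 0.13, adjusted p = 0.22). Another gene model shares exon bases with both (27.0% for DDX19A and 20.9% for DDX19B in all).

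In transcription and genome maintenance, 3 of 5 members were higher and 1 lower, and the paralogs DDX5 and DDX17 parted. Both are coregulators of transcription that also act in splicing and microRNA processing. DDX5 had 923 and 965 CPM in sorted P-bodies, against 547 and 540 CPM in cytosol, and rose by 0.80 ± 0.11 (adjusted p = 0.00019, edgeR). DDX17 had 834 and 807 CPM in sorted P-bodies, against 1561 and 1514 CPM in cytosol, and fell by 0.91 ± 0.11 on the log2 scale (adjusted p = 9.6e-05). Per kilobase of gene model, DDX17 was the most abundant member in cytosol (154 CPM per kb). On that scale it came after DDX21, DHX9, DDX5 and DDX3X in sorted P-bodies (82.0, with DDX3X at 82.2). The log2 ratio of DDX5 to DDX17 CPM was 0.20 ± 0.08 in sorted P-bodies, against -1.50 ± 0.02 in cytosol (SD, n = 2 each).

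With 2 libraries against 2, an exact permutation test of such a ratio cannot go below p = 0.33 (two-sided). The other pairs also shifted, with no overlap between fractions. In each pair a gene had already passed on the same values, so this adds no support. How often other gene pairs overlap was not examined. The counts of DDX39B, DDX19A and DDX19B are themselves uncertain. DDX21 over DDX50 stood at 3.18 ± 0.21 in sorted P-bodies, against 2.30 ± 0.03 in cytosol. DDX39A over DDX39B stood at -1.11 ± 0.004 and -1.98 ± 0.09, and DDX19A over DDX19B at 1.14 ± 0.22 and 0.51 ± 0.07 (sorted P-bodies and cytosol in each case, SD, n = 2 each).

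DHX9, which unwinds double-stranded RNA and RNA-DNA hybrids, had 1059 and 1106 CPM in sorted P-bodies, against 413 and 439 CPM in cytosol (1.34 ± 0.11, adjusted p = 1.1e-05, edgeR). DDX20, of the SMN complex, was higher by 0.60, and DDX11, a DNA helicase of sister chromatid cohesion with a near-identical pseudogene, did not pass (0.15). Neither mitochondrial helicase passed (DDX28 at 0.04 and DHX30 at -0.10).

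DDX60, an interferon-induced antiviral helicase, rose furthest of all members but was rare. It had 15.7 and 22.2 CPM in sorted P-bodies, against 4.91 and 3.88 CPM in cytosol (2.10 ± 0.20, adjusted p = 1.9e-05, edgeR). The RNA sensors DDX58 and DHX58 stayed under 2 CPM in all libraries and did not pass (0.54, adjusted p = 0.25, and -1.05, adjusted p = 0.051). DHX57 (0.89), DDX59 (0.61) and DHX32 (0.50) were higher.

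**Figure D2:**
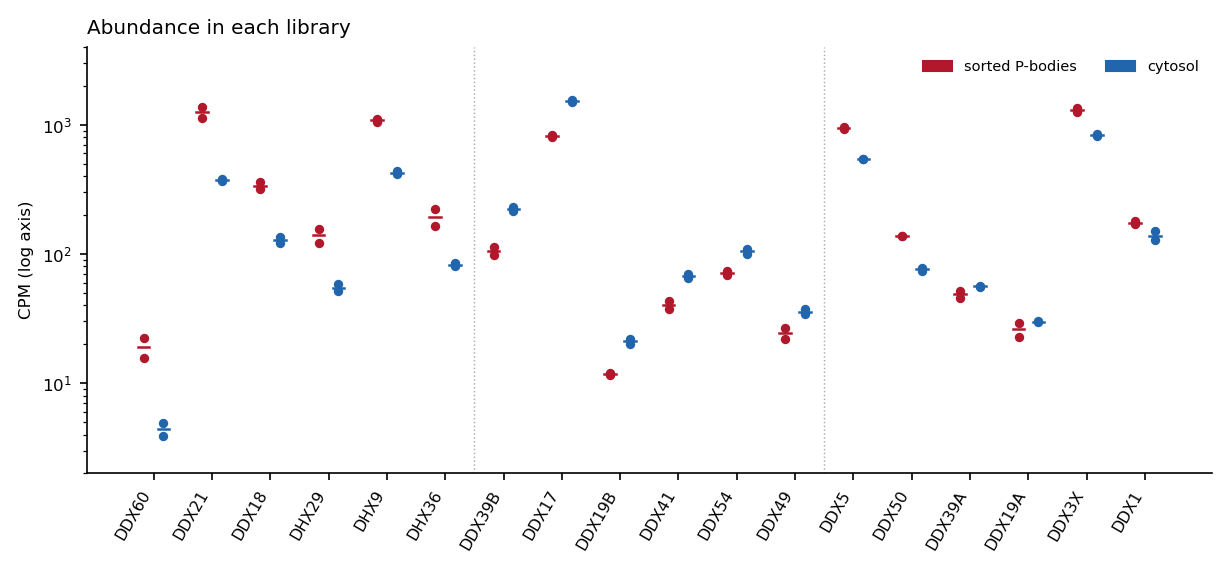
CPM of named members in each library on a log axis, sorted P-bodies left of cytosol for each gene; points are libraries and bars are means of 2. From left to right stand the 6 largest rises, the 6 largest falls and 6 other named members; DDX5 and DDX17 moved in opposite directions.

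DDX6, given for comparison, had 2016 and 1947 CPM in sorted P-bodies, against 1562 and 1561 CPM in cytosol (0.34 ± 0.11, adjusted p = 0.025, edgeR). The scaling sets the level of these calls. Scaled by library size alone, all genes had a median of -0.23, and 18 members were higher and 16 lower, where 22.7% and 36.9% of all genes were. Higher calls were then 52.9% of all member calls, against 75.9% with TMM. Every member that fell with TMM remained lower, and the calls of DDX1, DHX16, DHX8 and DHX35 were lost. Without sorted library 1, the spread came from the cytosol libraries alone. Calls that changed then were, on the lower side, DDX56 (-0.34), DDX19A (-0.40), DDX39A (-0.31), DHX34 (-0.33), DDX27 (-0.23) and DHX30 (-0.21). On the higher side they were DDX58 (0.91), DDX42 (0.22) and DHX38 (0.20). Without cytosol library 1 the higher calls of DDX20, DDX46, DDX52, DHX8, DHX16 and DHX32 were lost (adjusted p from 0.051 to 0.31), and without cytosol library 2 those of DDX46, DHX8, DHX16 and DHX35 (adjusted p from 0.053 to 0.16), as was the call of DDX1 in both cases.

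The members' mRNAs that rose and fell also differed in base composition, which the choice of members did not use. GC3 is the share of codons ending in G or C in the longest coding sequence of a gene. Median GC3 was 38.0% in the 22 higher members, 74.4% in the 7 lower members and 64.4% in the 19 that did not pass. Among coding genes tested it was 43.1% in higher genes and 68.9% in lower genes. Across the 48 members, log2 fold change and GC3 had a Spearman rho of -0.80 and a Pearson r of -0.74. Across 13581 coding genes with a value, of 13633 tested, the rho was -0.53. GC of the whole transcript gave a rho of -0.78 over members and -0.57 over coding genes. GC of the 3′UTR gave -0.70 and -0.49, so the relation was not particular to codon endings. These correlations run across genes measured in the same 4 libraries, and genes are not independent replicates.

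Of 28 members below the coding-gene median of 59.4%, 21 were higher and 1 lower. That one was DDX17, at 47.2%, while DDX5 had 35.8%. Of 20 members at or above the median, 1 was higher, DHX16 (65.6%), and 6 were lower. The same split over coding genes gave 54.0% higher and 18.5% lower below the median, and 11.8% higher and 48.3% lower at or above it. Coding length followed abundance less closely (rho 0.44 over members and 0.37 over coding genes), and 3′UTR length hardly at all over members (rho 0.08, against 0.27 over coding genes). In the editing values the members' rho with GC3 was -0.50 for A-to-I and -0.56 for C-to-U (coding genes -0.37 and -0.33), and in the knockdown reads described last it was -0.37, where coding genes had 0.11. The part of composition or of library input in the calls was not tested.

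**Figure D3:**
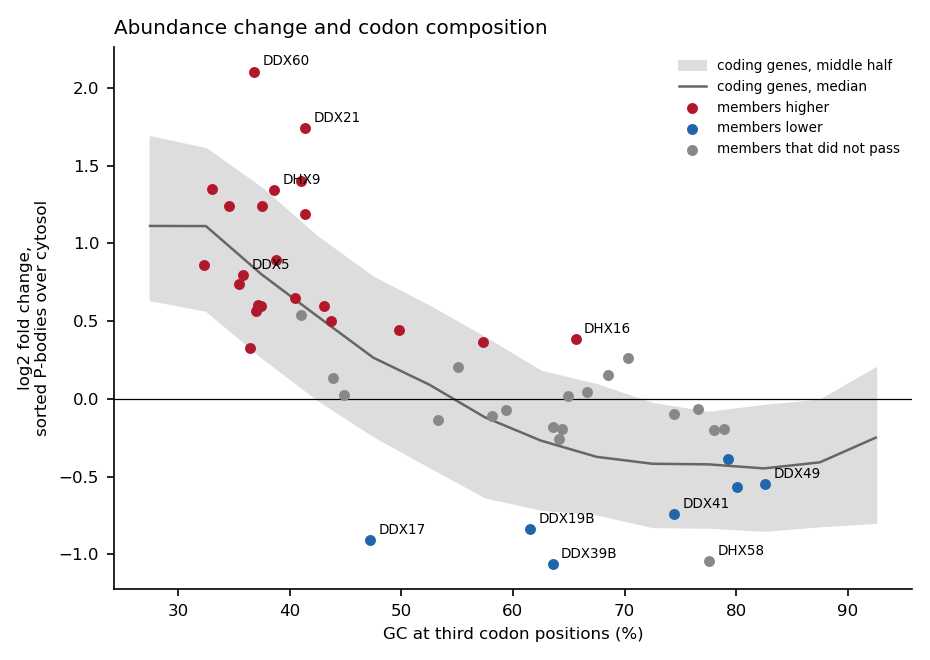
Log2 fold change in sorted P-bodies over cytosol against the percentage of codons ending in G or C (GC3). Points are the 48 members tested, and the grey line and band are the median and the interquartile range of coding genes in bins of 5 percentage points; DDX17 (47.2% GC3) lies below the band.

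Editing asked which RNAs had met the editors more often in the sorted fraction. The editing score is the percentage of a gene's reads that are edited. A-to-I scores of members had a median of 8.16% in sorted P-bodies, against 2.88% in cytosol. Of 43 members tested, 39 scored higher and 0 scored lower in the sorted fraction (edgeR on edited and unedited reads; 0 lower by limma, and 0 lower at an unadjusted p under 0.05). Over all genes 73.5% were higher and 1.08% lower. The median log2 odds ratio was 1.67 over members and 1.46 over all genes. DHX16, DDX19A, DDX51 and DDX49 did not pass. The editing comparisons use the same sorted and cytosol libraries as the abundance comparison, and both editors were read in these libraries.

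DDX21 was the most edited member, at 23.4 and 23.1% in sorted P-bodies, against 8.04 and 6.499% in cytosol (a log2 odds ratio of 1.95 ± 0.12, adjusted p = 1.7e-09, edgeR). DDX3X followed at 18.2 and 19.2% against 6.43 and 5.81% (1.82 ± 0.10, adjusted p = 1.0e-09). DHX36 scored 9.40 and 10.3% against 4.63 and 3.28% (1.41 ± 0.18), and DDX1 scored 9.62 and 9.73% against 2.84 and 3.06% (1.81 ± 0.16). DHX9, covered by 27335 reads in sorted P-bodies, against 16429 reads in cytosol, scored 7.37 and 7.68% against 4.74 and 4.73%, a smaller rise of 0.71 ± 0.11 (adjusted p = 1.6e-05).

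The largest A-to-I rises were in genes with low cytosolic scores, which are the base of the odds ratio and so favour large values. A low score did not always go with a rise: DDX51, at 0.570 and 0.929% in cytosol, did not pass (0.49). DDX55, a ribosome assembly factor, scored 6.59 and 5.68% in sorted P-bodies, against 0.762 and 0.698% in cytosol (3.15 ± 0.29, adjusted p = 9.0e-08, edgeR). DDX5 scored 7.66 and 8.15% against 1.11 and 0.975% (3.03 ± 0.13, adjusted p = 2.0e-10). DHX15 scored 6.57 and 6.71% against 1.10 and 0.823% (2.88 ± 0.17), and DDX24 7.16 and 6.88% against 1.43 and 1.27% (2.47 ± 0.19). DDX42 scored 9.59 and 11.4% against 2.27 and 2.13% (2.38 ± 0.17), and DDX56 3.52 and 3.99% against 0.900 and 0.294% (2.704 ± 0.43). The fractions did not overlap in any of the 6 genes with the largest rises. They were picked as the largest rises that passed on the same scores, so this adds no support.

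DDX17, lower in abundance, was edited more in sorted P-bodies, at 4.16 and 3.75% against 0.836 and 0.933% in cytosol (2.21 ± 0.12, adjusted p = 8.3e-10, edgeR). DDX50 scored 13.3 and 17.8% against 4.37 and 4.20% (2.02 ± 0.20). DDX39A scored 8.49 and 9.40% against 2.18 and 2.90% (1.90 ± 0.26). DDX19A scored high in both fractions, at 13.9 and 13.3% against 8.64 and 12.6%, and did not pass (0.41 ± 0.28, adjusted p = 0.18); without cytosol library 2 it did (0.74, adjusted p = 0.044). DDX19B, at 2% and 6% against 0.941 and 1.06%, lost its call without sorted library 2 (1.01, adjusted p = 0.33) and by limma (adjusted p = 0.073).

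DDX39B had almost no edited reads for either editor. Its A-to-I edited reads were 1 of 3068 in sorted P-bodies, against 0 of 8802 in cytosol, where a count of 0 allows up to 0.0341%. For C-to-U it had 0 edited reads of 3066, which allows up to 0.0978%, and 1 of 8802 in cytosol. It had too few edited reads to be tested. Its paralog DDX39A, edited by A-to-I as above, had 1 C-to-U edited read of 1355 in sorted P-bodies, against 1 of 2282 in cytosol.

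**Figure D4:**
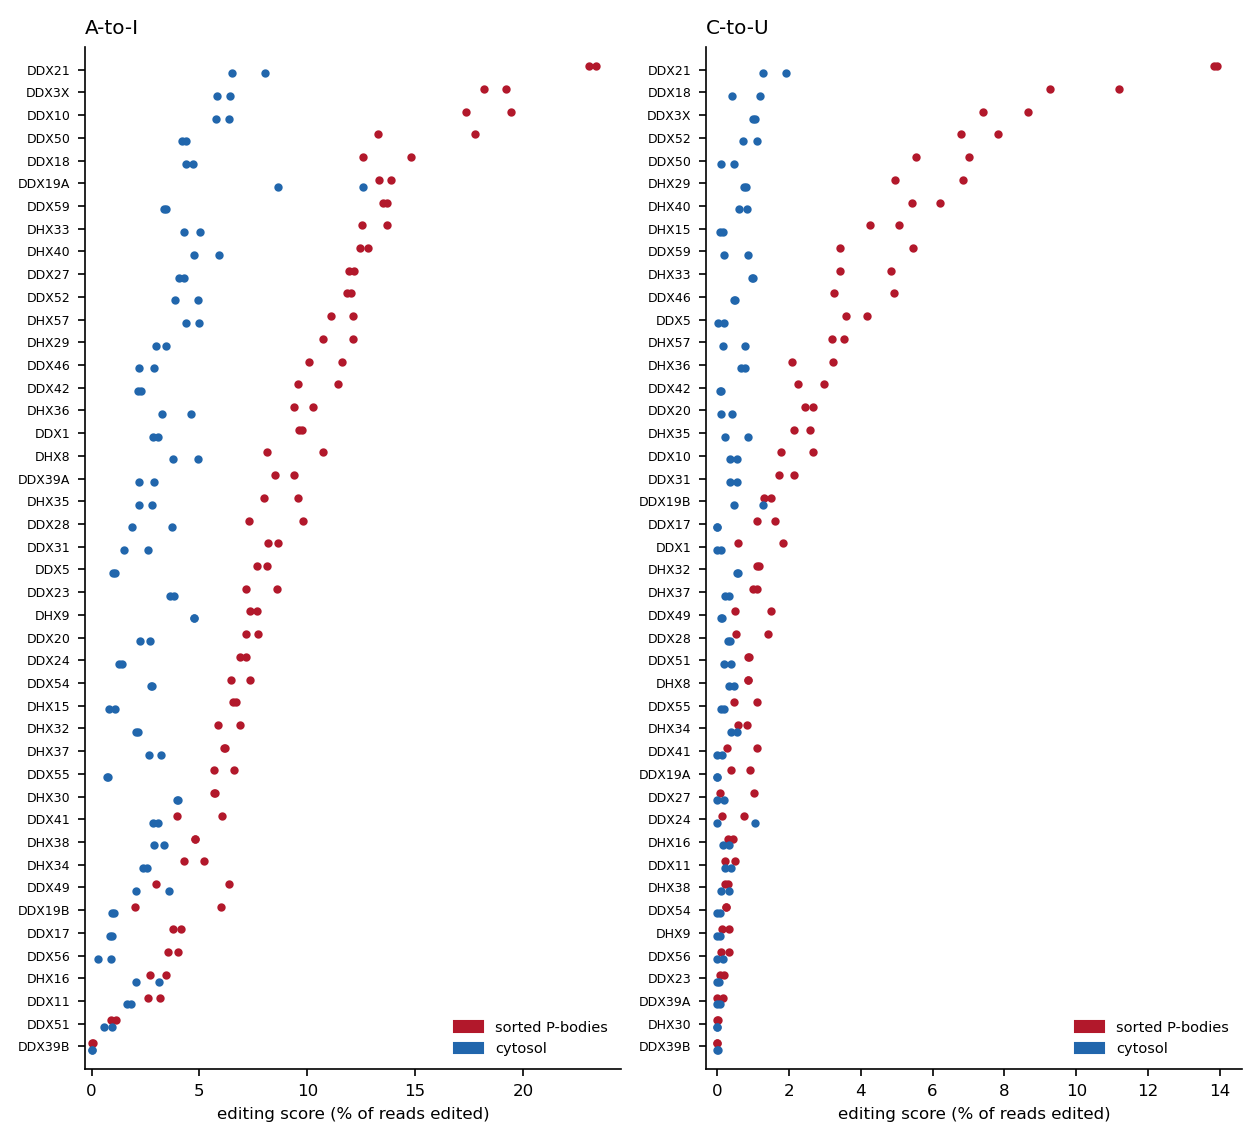
Editing score of each of the 44 listed members for both editors, one point per library, with sorted P-bodies in red above cytosol in blue; members run down in order of their mean score in sorted P-bodies. DDX21 was highest for both editors in sorted P-bodies and DDX39B was at or near 0.

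Scores rose in sorted P-bodies over the transcriptome as a whole, with library medians of 6.82 and 6.97% against 2.74 and 2.63% in cytosol. With each library centred on its median, 12 members were higher and 5 lower, where 16.9% and 12.4% of all genes were. Members still higher included DDX55 (1.75), DDX5 (1.62), DHX15 (1.47), DDX56 (1.31), DDX24 (1.06), DDX42 (0.97), DDX17 (0.80), DDX21 (0.54) and DDX3X (0.41). DHX16 (-1.16), DDX19A (-0.99), DHX30 (-0.86), DHX38 (-0.76) and DHX9 (-0.70) were lower against that shift. DHX9 was thus higher in abundance and raw score in sorted P-bodies and lower in score relative to the library medians.

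C-to-U editing was sparser, with a member median of 1.17% in sorted P-bodies, against 0.289% in cytosol. Of 42 members tested, 27 were higher and 0 lower (edgeR; 0 lower by limma), where 68.0% and 0.292% of all genes were. At an unadjusted p under 0.05, 28 members differed, all higher. The median log2 odds ratio was 2.36 over members and 2.33 over all genes. With libraries centred on their medians, 9 members were higher, where 13.8% of all genes were, and 0 were lower, where 3.62% were. The 9 were DDX17, DHX15, DDX5, DDX42, DDX50, DDX18, DDX21, DHX40 and DDX3X.

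DDX21 again scored highest, at 13.8 and 13.9% in sorted P-bodies, against 1.93 and 1.28% in cytosol (3.32 ± 0.31, adjusted p = 3.5e-06, edgeR). DDX3X scored 7.401 and 8.66% against 1.05 and 0.993% (3.08 ± 0.30), and DDX50 5.54 and 7.02% against 0.466 and 0.123% (4.49 ± 0.45). DHX15 scored 4.25 and 5.06% against 0.165 and 0.0999% (5.18 ± 0.40, adjusted p = 1.8e-06). DDX5 scored 3.59 and 4.18% against 0.204 and 0.0305% (5.11 ± 0.49, adjusted p = 4.3e-06). DDX42 scored 2.99 and 2.25% against 0.0916 and 0.123% (4.60 ± 0.46).

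DDX17 had the widest gap, with 134 and 153 edited reads in sorted P-bodies, against 0 and 1 in cytosol. Pooled, that is 287 of 21525 reads against 1 of 52436, a ratio of 699 with an exact 95% counting interval of 124 to 27710. DDX1 had 14 and 39 edited reads against 0 and 3, a ratio of 20.8 with an interval of 6.74 to 104. Its call was lost without sorted library 2 (adjusted p = 0.060, edgeR). DDX19A had 4 and 1 edited reads in sorted P-bodies, against 0 in both cytosol libraries. Pooled, that is 5 of 687 reads (0.728%, exact 95% interval 0.237 to 1.69%) against 0 of 1158 (exact upper bound 0.318%), so the ranges overlap. The test called DDX19A higher on these few edited reads (5.03 ± 1.70, adjusted p = 0.022, edgeR). The calling of edited sites is not described in the sources used here, and a filter on sites can leave a gene listed at 0. These intervals cover counting error only.

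Other named members moved less or unevenly. DHX36 scored 2.10 and 3.22% in sorted P-bodies, against 0.784 and 0.670% in cytosol (1.89 ± 0.38, adjusted p = 0.00087, edgeR). DHX9 scored 0.137 and 0.331% against 0 and 0.0822% (2.36 ± 0.83, adjusted p = 0.024), and lost its call by limma (adjusted p = 0.13) and without either sorted library (adjusted p = 0.085 and 0.30). DDX39A and DDX19B did not pass (0.71 and 0.69). DDX24 had 3 and 13 edited reads in sorted P-bodies, against 32 and 0 in cytosol, and its value turned on 1 library. It stood at -0.21 with all libraries, at 6.69 without cytosol library 1 (adjusted p = 0.00024) and at -1.33 without cytosol library 2 (adjusted p = 0.019). DDX27 passed only with the replicate block (2.52, adjusted p = 0.021) or without cytosol library 2 (5.85, adjusted p = 0.0057).

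Other helicases and helicase partners give a frame for the family. Among other RNA helicases, 13 of 18 tested rose in the sorted fraction and the other 5 did not pass (edgeR; median 0.91), led by ASCC3 (2.07), MTREX (1.79) and DICER1 (2.23), the 3 with the smallest p. UPF1 (-0.26), MOV10 (-0.05) and EIF4A3 (0.03) did not pass. Among cofactors that bind or activate these helicases, 12 of 28 were higher and 7 lower (median 0.12). Over all genes tested 28.8% were higher and 29.0% lower, and neither list was tested against these shares. TFIP11 and GPATCH2, G-patch proteins that activate DHX15-type helicases, had 1.73 and 1.68, and GPATCH1 had 1.56. ALYREF, which joins DDX39B in TREX, was at 40.1 and 31.3 CPM in sorted P-bodies, against 91.2 and 89.2 CPM in cytosol (-1.33 ± 0.13, adjusted p = 2.2e-05, edgeR), and NOC4L (-0.94) and SUGP1 (-0.69) followed.

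The knockdown asked what follows from depleting EDC4. EDC4 itself had 40.3 and 32.7 CPM in siEDC4 cells, against 110 and 106 CPM in siNC cells (-1.56 ± 0.14, adjusted p = 2.6e-25, edgeR). No helicase mRNA changed by the test: of 44 members, 0 were higher and 0 lower in siEDC4 cells (edgeR; 0 by DESeq2), where 0.432% and 0.132% of all genes were. At an unadjusted p under 0.05 there were 2 members, both lower. The log2 fold changes ran from -0.34 to 0.18 with SEs of 0.10 to 0.22, and the median was -0.05 over members and -0.00 over all genes. Since siNC counted as 1 sample, siEDC4 alone set the spread of these tests.

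The 2 lowest p-values belonged to DDX39A and the ribosome assembly factor DDX49. DDX39A had 103 and 96.2 CPM in siEDC4 cells, against 125 and 124 CPM in siNC cells (-0.32 ± 0.12, adjusted p = 0.37, edgeR). DDX49 had 51.3 and 59.9 CPM against 70.0 and 70.7 CPM (-0.34 ± 0.14, adjusted p = 0.46). In both, the siEDC4 libraries lay below the siNC libraries, but the genes were picked for their p-values, so this adds no support. With 4 separate libraries and the replicate block both passed (adjusted p = 0.0068 for DDX39A and 0.025 for DDX49, edgeR). With 4 separate libraries and no block neither passed. Deviations of same-numbered libraries hardly correlated in these reads (r = -0.035).

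The members most shifted in the sort did not pass here. DDX21 had 370 and 396 CPM in siEDC4 cells and 394 and 388 CPM in siNC cells (-0.03 ± 0.11). DHX9 had 508 and 552 CPM against 559 and 553 CPM (-0.07 ± 0.11), and DDX3X 899 and 962 CPM against 929 and 933 CPM (0.00 ± 0.10). DDX5 stood at -0.04 ± 0.11, DDX17 at -0.01 ± 0.10, DDX50 at -0.03 ± 0.13 and DDX39B at -0.20 ± 0.11, and DHX36 at -0.02 ± 0.12, DDX1 at 0.04 ± 0.11, DDX19A at -0.14 ± 0.17 and DDX19B at -0.05 ± 0.21. DDX60 was not analysed in this comparison.

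Editing scores of the members did not pass in the knockdown either. For A-to-I, 0 of 43 members tested passed (edgeR; 0 by limma), as did 0.0% of all genes, and 2 had an unadjusted p under 0.05. These were DDX56, with 5 and 6 edited reads in siEDC4 cells against 1 and 1 in siNC cells (2.51 ± 0.86, adjusted p = 0.84), and DDX21, at 0.711 and 1.24% against 0.407 and 0.404% (1.26 ± 0.50, adjusted p = 0.84). DDX3X scored 2.82 and 2.97% against 2.11 and 1.98% (0.51 ± 0.27, adjusted p = 0.84), with no overlap. The member median log2 odds ratio was 0.13, against 0.31 over all genes.

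For C-to-U, 0 of 42 members passed (edgeR; 0 by limma and 0 at an unadjusted p under 0.05), again as 0.0% of all genes did. DDX17 had 33 and 33 edited reads in siEDC4 cells, against 14 and 18 in siNC cells (1.08 ± 0.54, adjusted p = 0.996), and went the other way for A-to-I (24 and 13 against 30 and 33 edited reads, -0.74 ± 0.41, adjusted p = 0.84). The SEs of the editing values, with medians of 0.65 for A-to-I and 0.57 for C-to-U, exceeded those of the read counts (median 0.12). Even shifts well above an SE did not pass, such as DDX56 for A-to-I (2.51 ± 0.86, adjusted p = 0.84, edgeR). The lack of a call therefore does not show that editing was unchanged. Centred on library medians, 0 members passed for C-to-U, as did 0.0% (higher) and 0.0104% (lower) of all genes.

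**Figure D5:**
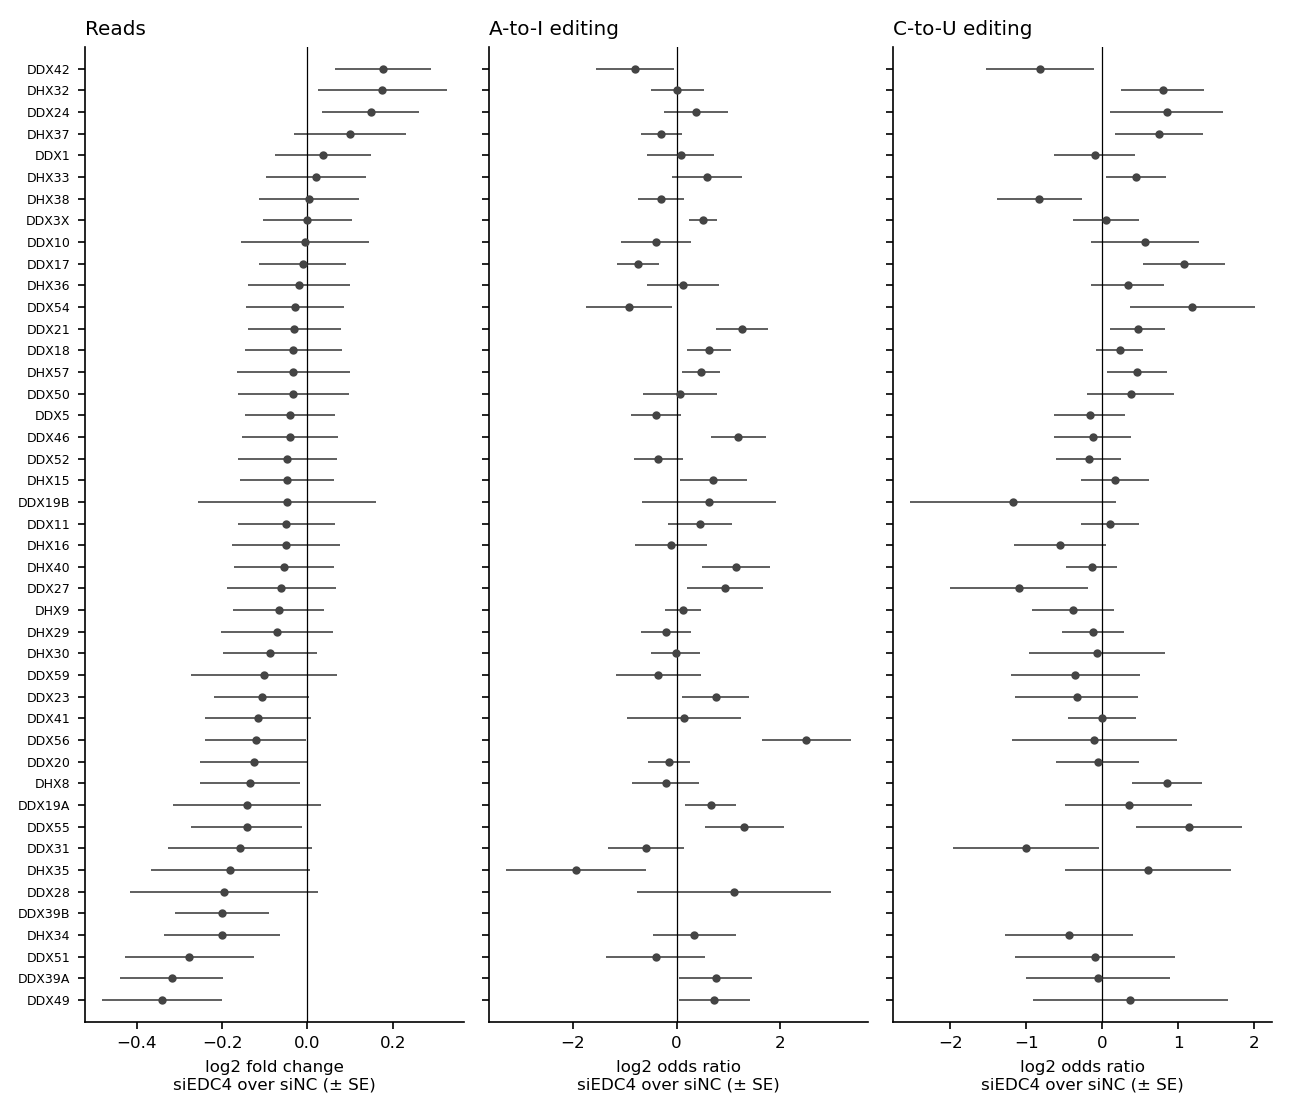
Log2 fold change of reads (left) and log2 odds ratios of A-to-I (middle) and C-to-U editing (right) in siEDC4 over siNC cells, with SE, for the 44 listed members in order of their change in reads. Reads run from -0.34 for DDX49 to 0.18 for DDX42 and no member passed in any of the panels; DDX39B had too few edited reads for an editing value, and DDX28 too few for C-to-U.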

How the data were processed

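TRIzol extracts were made into libraries with a YEASEN kit, per the labels' protocols. Tools named in the submitters' processing notes are FastQC 0.11.9 and cutadapt 1.18, then STAR 2.7.9a and featureCounts 2.0.1, with the hg38 build. Annotation, use of strand and site calling are not described there.

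For the sort, the authors deposited whole-number read counts of each gene, without normalization. For each editor and contrast they deposited edited reads, reads and a score. The deposited reads were entered as estimated counts, because 3 broken lines in each table, left out here, are not whole. The deposited score is a fraction, given here as a percentage.

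All genes passing filterByExpr were fitted with edgeR 4.0.16 in R 4.3.3 after TMM scaling. Editing was fitted likewise on edited and unedited reads, with library effects, for genes edited in at least 2 libraries. P-values were adjusted by Benjamini-Hochberg with a threshold of 0.05. An SE is the estimate divided by the root of its F statistic. Alternatives were DESeq2 1.42.0, limma 3.58.1 on log2 scores (with pseudocounts of 1.19% for A-to-I and 0.233% for C-to-U in the sort, 0.438% and 0.565% in the knockdown), other filters and scalings, a replicate block and leaving out each library. The tests were tried on simulated data. Editing tables held 5697417 to 15947999 reads per library, and intervals and limits for a count of 0 cover counting error only. The 4 knockdown libraries were also fitted separately.

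The labels' batch numbers are shared across groups and so pair the libraries; deviations of same-numbered libraries correlated between -0.04 and 0.04 in the 6 comparisons.

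Values per library were given for the 6 largest rises and 6 largest falls that passed with at least 10 CPM in a group, for 4 paralog pairs and for DDX3X, DHX9, DHX36 and DDX1. Of other lists the 3 smallest p each way were named, and other members stand with their role. Members and lists were chosen with earlier results of these data known.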

Additional observations from a re-analysis of the deposited data

How the results depend on the processing

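Counts of members called kept within 1.5 times their value under the alternatives run, except for those given here. In sort abundance, 16 members were lower with library-size scaling, and leaving out 1 library gave 15 to 25 higher and 6 to 13 lower. Leaving out 1 library gave 35 to 39 higher and 0 lower for A-to-I, and 20 to 27 higher and 0 to 1 lower for C-to-U. Centred on library medians, 12 members were higher and 5 lower in A-to-I and 9 higher in C-to-U. In knockdown reads, 2 members were lower with 4 libraries and the replicate block (DDX39A and DDX49). Besides these and DDX27 in C-to-U, the replicate block changed no call.

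Directions turned when libraries were centred on their medians. Members that passed with or without centring come first. In A-to-I the log2 odds ratio became -0.62 for DDX11, -0.99 for DDX19A, -0.27 for DDX23, -0.56 for DDX41, -0.037 for DDX54, -1.16 for DHX16, -0.86 for DHX30, -0.45 for DHX34, -0.29 for DHX37, -0.76 for DHX38, -0.042 for DHX40, -0.23 for DHX8 and -0.70 for DHX9. In C-to-U it became -0.10 for DDX31, -0.065 for DHX33, -0.016 for DHX35, -0.26 for DHX36 and -0.14 for DHX37. Another 2 members in A-to-I and 11 in C-to-U turned in the sort, and 6 and 4 in the knockdown, passing in neither setting. Centring removes the rise shared by all genes by construction. DDX24 in C-to-U ran from -1.66 to 6.69 as 1 library was left out; the cause was not tested. Without a siEDC4 library only values, with no test, could be had. Members had a median of 1525.5 summed siNC reads in the A-to-I table.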
